A study of Mus musculus with 3 samples.

Results

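The translation initiation and elongation factors are the proteins that bring an mRNA, the initiator tRNA and the ribosomal subunits together and then move the ribosome along the coding sequence. Members were the protein-coding mouse genes whose symbols begin with Eif1 to Eif6, Eef1 or Eef2, with Eif2ak1 to Eif2ak4 and Eif2s3y left out. This gave 62 of the 50043 gene IDs in the deposited table. Of 75 IDs with those name beginnings, 67 were protein-coding, 8 were not, and 5 were left out by name. RNA was sequenced from KH2 mouse embryonic stem cells, a line made for inducible transgenes, in which Pold3 can be knocked out by induction. The passages were P0, P1 and P2 with 1 library for each, and all 3 came from the same inducible-knockout line. The labels do not say when or how the knockout was induced relative to P0, and they name no uninduced or wild-type line. The Pold3 protein is an accessory part of the replicative DNA polymerase delta. Since each passage has 1 library, differences could not be checked against replicates and p-values are left out.

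In initiation, eIF1, eIF1A and the large eIF3 complex hold the small ribosomal subunit open while eIF2, bound to GTP, delivers the initiator tRNA, and eIF2B recharges eIF2 with GTP after each round. At the other end, eIF4E binds the mRNA cap, eIF4G is the scaffold, and the helicase eIF4A unwinds the leader; eIF5B then joins the large subunit. In elongation, eEF1A brings each aminoacyl-tRNA, the exchange subunits of eEF1 recharge it with GTP, eIF5A helps at slow peptide bonds, and eEF2 moves the ribosome by a codon. Mouse embryonic stem cells are known for a low rate of translation that increases as they differentiate.

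Promoter sequences are shown for 6 members named in the results. They are the abundant and the scarce copy of eEF1A, both cytoplasmic eIF4A helicases, and eEF2 beside the kinase that inhibits it. A link between these sequences and the mRNA levels was not tested. The stretches are from RefSeq (GRCm38.p6), 5′ to 3′ on the gene's strand, and run from 100 bases before the annotated start to 20 bases from it on. Capitals mark a match on either strand to the TATA box searched as TATAAA, the CCAAT box, the GC box searched as GGGCGG, or the core of the cAMP response element (CRE core) searched as TGACG. Positions are those of RefSeq and not of the deposited table.
Eef1a1, chr9:78481705-78481824, minus strand: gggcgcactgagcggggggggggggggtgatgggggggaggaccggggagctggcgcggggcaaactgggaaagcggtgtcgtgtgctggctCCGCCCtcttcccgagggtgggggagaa
Eef1a2, chr2:181156996-181157115, minus strand: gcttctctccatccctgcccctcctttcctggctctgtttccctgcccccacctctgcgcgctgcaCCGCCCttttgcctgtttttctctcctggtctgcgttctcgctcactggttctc
Eif4a1, chr11:69672404-69672523, minus strand: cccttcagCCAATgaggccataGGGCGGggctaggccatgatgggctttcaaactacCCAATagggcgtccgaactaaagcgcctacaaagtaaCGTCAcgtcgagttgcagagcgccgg
Eif4a2, chr16:23107368-23107487, plus strand: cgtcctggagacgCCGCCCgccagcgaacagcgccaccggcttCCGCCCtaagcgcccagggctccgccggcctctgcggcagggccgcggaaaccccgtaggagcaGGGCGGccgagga
Eef2, chr10:81176531-81176650, plus strand: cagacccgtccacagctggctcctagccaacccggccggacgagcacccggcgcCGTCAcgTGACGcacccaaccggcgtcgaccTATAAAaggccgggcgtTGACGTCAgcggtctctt
Eef2k, chr7:120842731-120842850, plus strand: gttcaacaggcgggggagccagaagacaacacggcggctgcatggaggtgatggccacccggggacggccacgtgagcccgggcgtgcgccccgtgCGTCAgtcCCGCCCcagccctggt
In these stretches Eef1a1 and Eef1a2 each held 1 GC box and no other motif searched. Eif4a1 held 2 CCAAT boxes, 1 GC box and 1 CRE core, while Eif4a2 held 3 GC boxes and no CCAAT box. Eef2 was the sole one with a TATA box. Its 4 CRE core matches include a palindrome that is counted on both strands. Eef2k has 3 annotated starts, and the first is shown, with 1 GC box and 1 CRE core.

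Over whole windows of 300 bases (250 before the start and 50 after), 46 of 62 members matched a RefSeq window and gave 60 windows. A GC box was in 71.7% of the member windows and in 35.7% of all 32851 windows. A CRE core was in 45.0% of member windows and in 20.8% of all windows. A CCAAT box was in 23.3% of member windows, against 37.4% of all, and a TATA box in 6.7%, against 13.6%. The median GC content was 62.5% in member windows and 52.7% in all windows, so these shares differ together with base composition. A match is a match of letters and not a shown binding site.

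Behind the FPKM values (fragments per kilobase, scaled by the reads of the library) stood library totals of 23213528 (P0), 18059914 (P1) and 22405670 (P2) reads. At these depths 3 reads on a gene of 2 kb are worth 0.0646, 0.0831 and 0.0669 FPKM. The targeted gene Pold3 was listed at 49.2, 13.0 and 11.6 FPKM at P0, P1 and P2. Members took 873951, 619430 and 767770 of these reads, so counting error is small for most of them. The median half-width of a member's 95% counting interval was 0.05 on the log2 scale in each comparison. Intervals given with fold values are exact 95% intervals (Clopper-Pearson) on the recovered reads, and those of a ratio of genes within a library are normal approximations on the log ratio of reads. They cover counting error alone, because no molecular identifiers tell PCR copies apart, and they compare libraries rather than conditions. FPKM ratios between genes also rest on the recovered gene lengths, which the intervals do not cover. These lengths were, for example, 950 bases for Eef1a1 and 2084 for Eef1a2.

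The translation factors were abundant mRNAs at every passage and, in their great majority, differed little between passages. Of the 62 members, 58 had at least 1 FPKM in all 3 libraries, 47 had at least 50 FPKM in all 3, and 4 stayed under 1 FPKM throughout. Eef1a1 alone gave 1.27, 1.12 and 1.12% of the summed FPKM of the table at P0, P1 and P2, and it ranked 2, 1 and 1 among all gene IDs. The 62 genes together gave 4.03, 3.67 and 3.69% of the summed FPKM. Without Eef1a1 the rest gave 2.76, 2.55 and 2.57%, so the share was highest at P0 with and without it. The 10 members with the highest mean level were Eef1a1, Eif4a1, Eef1g, Eif5a, Eef2, Eif4g2, Eef1b2, Eif3b, Eif1 and Eif4a3.

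**Figure D1:**
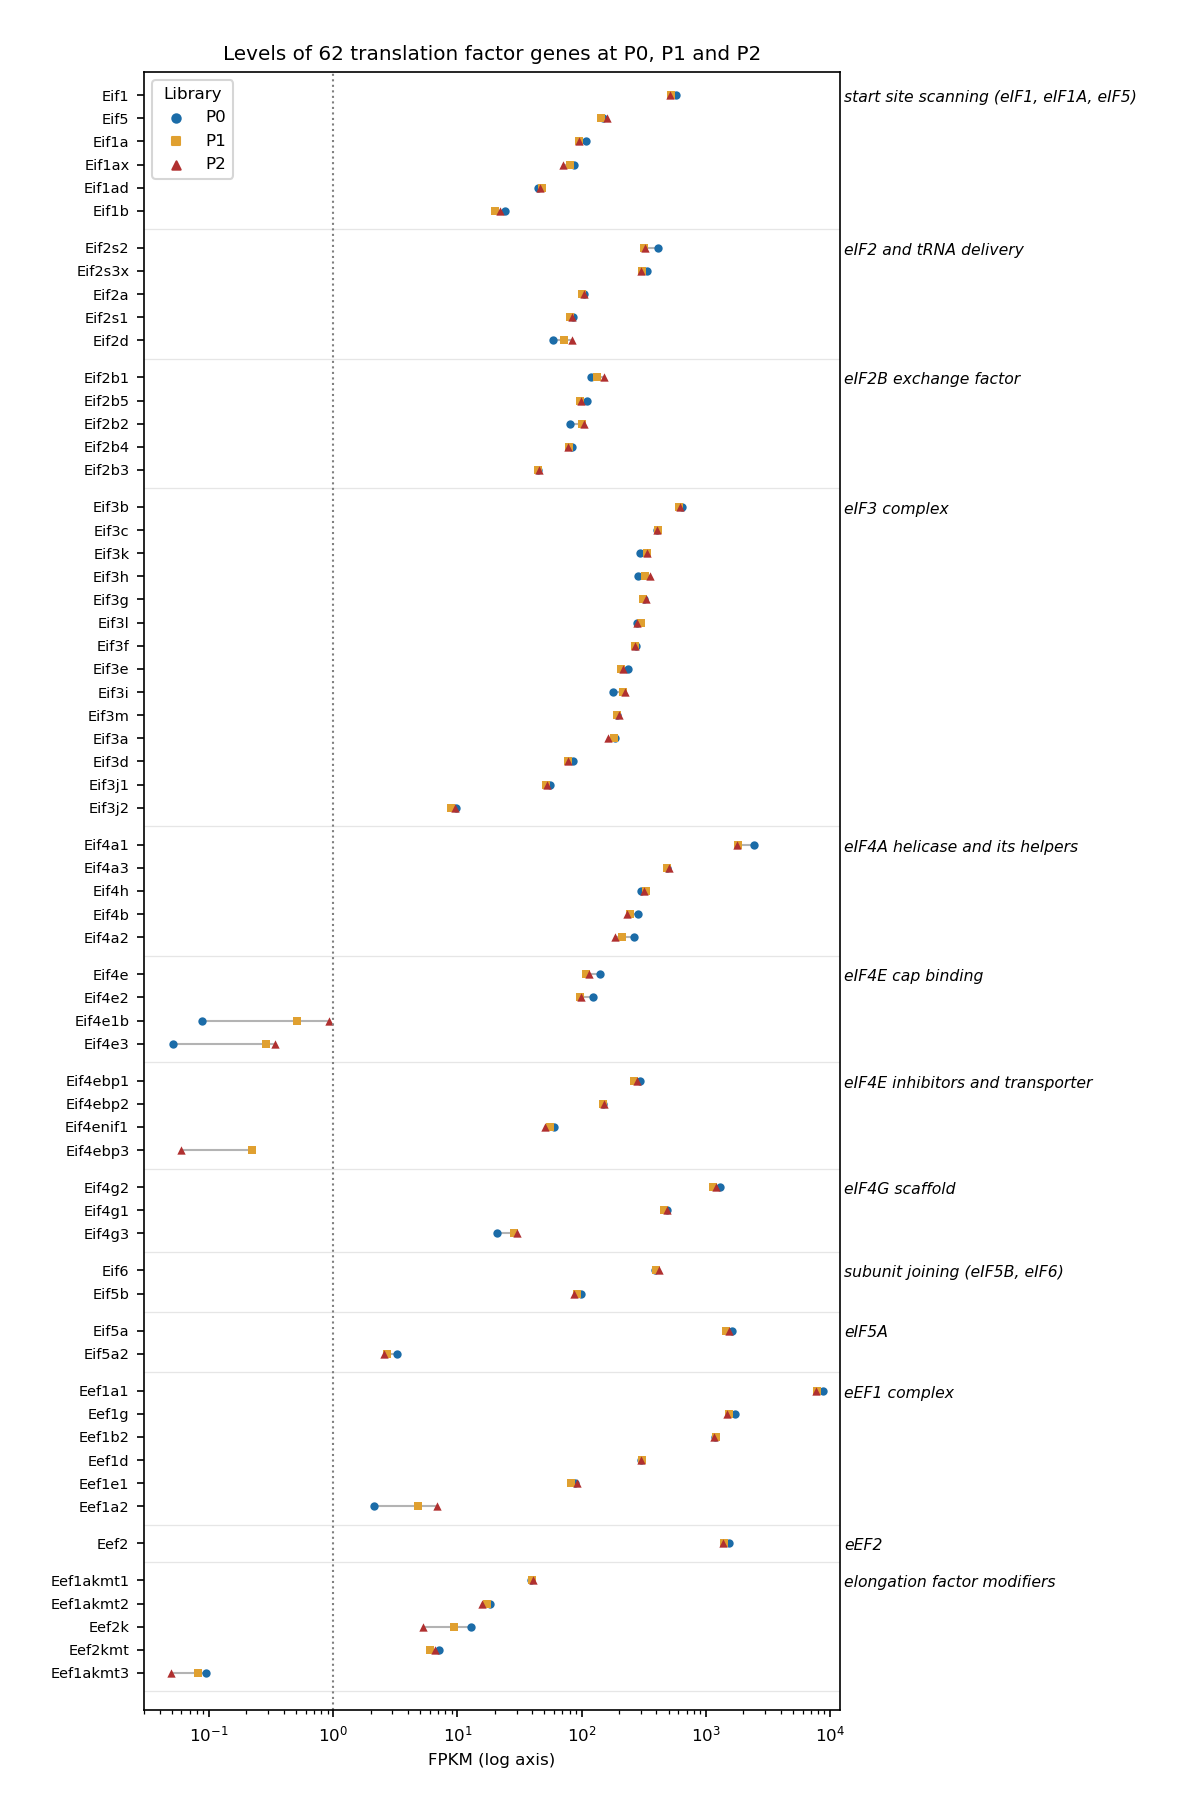
FPKM of the 62 members (log axis) by role, with 1 point per library at P0, P1 and P2 and a dotted line at 1 FPKM. Levels run from under 1 FPKM for 4 genes to 8821 FPKM for Eef1a1 at P0, and for most genes the 3 points lie on top of each other; Eif4ebp3 at P0 is listed at 0 and is not drawn.

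Differences were taken on log2(FPKM + 1) among genes with at least 1 FPKM in 1 or both libraries. On this scale the change of a low gene comes out too small. A gene is said to have risen or fallen when this differed by at least 1 (2-fold); a difference of 0.58 is 1.5-fold and one of 0.26 is 1.2-fold. At P1 against P0, 0 of 58 members passed 2-fold, where 4.67% of all 13288 genes compared did. At 1.5-fold the count was 1 member, Eef1a2, which was higher, against 13.8% of all genes in either direction and 11.4% higher. At P2 against P0, 2 of 58 members passed 2-fold, Eef1a2 higher and Eef2k lower, where 7.88% of 13472 genes did (6.72% higher and 1.16% lower). The same 2 members and no other passed 1.5-fold at P2, against 19.9% of all genes. Between P2 and P1, 0 members passed 2-fold (1.66% of 13585 genes did) and 1 passed 1.5-fold, Eef2k, which was lower, against 6.18% of all genes in either direction and 2.57% lower. Abundant genes varied less than others in this table: of 2673 genes with a mean of at least 50 FPKM, 1.76% passed 2-fold at P1 against P0, 2.84% at P2 against P0 and 0.262% between P2 and P1. At 1.5-fold these shares were 5.35, 8.04 and 1.27%. Both comparisons with P0 use the same P0 library, so they are not independent of each other.

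Most members were slightly lower at the later passages. At P1 against P0 the median difference of the 58 members was -0.09, beside 0.06 over all genes and 0.00 over genes of at least 50 FPKM. At P2 against P0 it was -0.07, beside 0.07 and 0.00. Between P2 and P1 it was 0.02, the same as over all genes. Of the 58 members, 40 (69.0%) were lower at P1 than at P0 and 39 (67.2%) were lower at P2 than at P0, where 42.4% and 42.3% of all genes were. Among genes of at least 50 FPKM, 49.9% and 49.8% were lower. The gap to all genes depends on the scaling. Quantile normalization set the median at P2 against P0 to -0.04 for the members and to -0.05 for all genes, with 35 members lower and 21 higher. Median-of-ratios scaling gave -0.12 for the members and 0.02 for all genes, with 42 lower and 16 higher. These medians are small: 48 members at P1 and 43 at P2 lay within 1.2-fold of P0, and 56 lay within 1.2-fold between P2 and P1. Over all genes the shares within 1.2-fold were 59.5, 51.5 and 73.8%, and for the members they were 82.8, 74.1 and 96.6%. Genes of at least 50 FPKM, the level of most members, lay closer to the members, with 75.8, 66.5 and 90.0%.

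Across the 3 passages, 18 members (31.0%) had P0 above P1 above P2, and 17 (29.3%) had P0 above P2 above P1. The same orders were held by 19.2% and 12.7% of 13758 genes. Orders were not counted for genes of at least 50 FPKM alone. Of these, 49.8% were lower at P2 than at P0, beside 42.3% of all genes. The opposite order, P2 above P1 above P0, was held by 11 members (19.0%) and by 31.1% of genes. Past 1.2-fold at P2 against P0 were 15 members (25.9%), where 48.5% of all genes and 33.5% of those of at least 50 FPKM were. By direction, 12.1% of the members were higher and 13.8% lower, beside 32.0% and 16.5% of all genes and 18.5% and 15.0% of those of at least 50 FPKM. The share of lower members was thus not above that of genes in general. The 7 higher ones were Eef1a2, Eif4g3, Eif2d, Eif2b2, Eif2b1, Eif3i and Eif3h. The 8 lower ones were Eef2k, Eif4a2, Eif4a1, Eif2s2, Eif4e2, Eif1ax, Eif4e and Eif4b.

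**Figure D2:**
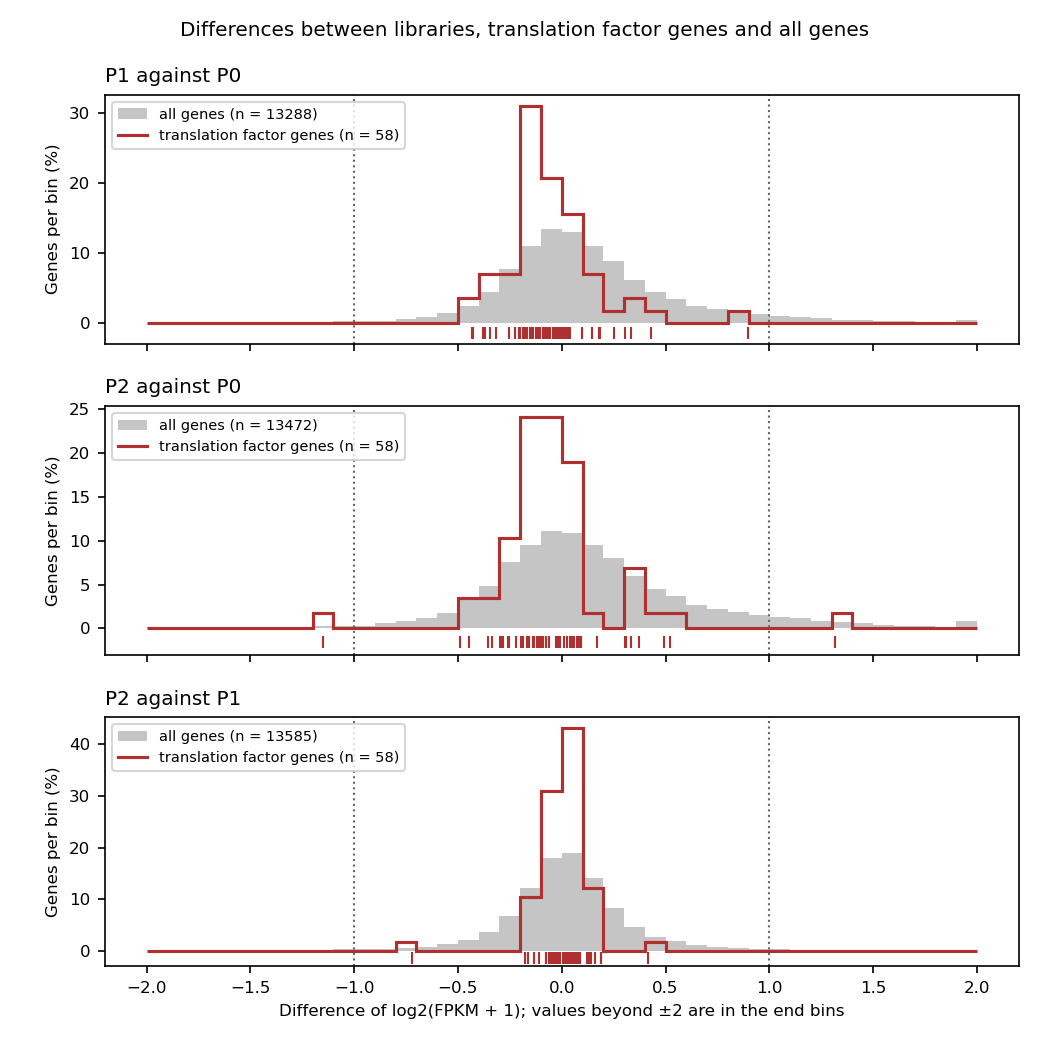
Distribution of the difference in log2(FPKM + 1) for the members and for all genes compared, in each pair of passages. The members sit in a narrower range than all genes, with medians of -0.09, -0.07 and 0.02.

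The factors of start site scanning, which keep the small subunit open and check the start codon, were moderately to highly abundant and close to their P0 levels. Their median difference was -0.11 at P1 and -0.13 at P2 against P0, and 0 of 6 passed 1.5-fold. Over all genes 13.8% and 19.9% passed it in these pairs, and of genes of at least 50 FPKM 5.35% and 8.04% did. A count of 0 of 6 does not set the group apart from these shares. Eif1, which guards against initiation at wrong codons, had 569, 528 and 517 FPKM at P0, P1 and P2. Eif1ax, the X-linked gene of eIF1A, had 87.2, 80.3 and 70.9 FPKM, each passage below the one before. Its P2 level lay 1.23-fold under P0 (interval 1.18 to 1.28). Its autosomal copy Eif1a had 108, 95.6 and 94.5 FPKM, so both genes of eIF1A were lowest at P2. The eIF1 copy Eif1b stayed far below Eif1, at 24.0, 20.0 and 22.2 FPKM. Eif5, which makes eIF2 hydrolyse its GTP at the start codon, had 148, 144 and 158 FPKM, with P2 highest, and Eif1ad, a gene with an eIF1A-like domain, had 44.7 to 47.8 FPKM.

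The 3 subunits of eIF2 did not move alike. Eif2s2, the beta subunit, had 410, 315 and 321 FPKM at P0, P1 and P2. Against P0 the P1 level was lower by 1.30-fold (interval 1.28 to 1.33) and the P2 level by 1.28-fold (1.26 to 1.30), so both later libraries lay together below P0. Eif2s1, the alpha subunit whose phosphorylation shuts down initiation, had 84.5, 80.6 and 82.9 FPKM, within 1.2-fold in all comparisons. The gamma subunit gene Eif2s3x had 336, 303 and 301 FPKM, also within 1.2-fold. Within a library, the FPKM ratio of Eif2s2 to Eif2s1 was 4.85 at P0 (interval 4.72 to 4.98), 3.91 at P1 (3.79 to 4.04) and 3.87 at P2 (3.76 to 3.98). Of the factors that deliver tRNA without the eIF2 trimer, Eif2a was level at 105, 100.2 and 104 FPKM. Eif2d had 58.7, 72.6 and 83.0 FPKM, with P2 highest, 1.41-fold above P0 (1.35 to 1.48). In the annotation Eif2d overlaps exons of Rassf5 on the other strand, which had 0.554, 1.12 and 1.07 FPKM.

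Among the 5 subunits of eIF2B, the exchange factor of eIF2, the alpha and beta subunits were past 1.2-fold higher at P2 than at P0 and the rest were not. Eif2b2, the beta subunit, had 80.1, 101 and 104 FPKM at P0, P1 and P2, with P2 1.30-fold above P0 (interval 1.21 to 1.39). Eif2b1, the alpha subunit, had 119, 132 and 151 FPKM, with P2 1.26-fold above P0 (1.19 to 1.34). Both had their highest level at P2 and their lowest at P0. Eif2b3 had 44.9, 44.6 and 45.8 FPKM and did not leave a narrow range. Eif2b4 had 84.3, 79.7 and 77.5 FPKM. Eif2b5, the catalytic subunit, had 110.4, 96.9 and 98.5 FPKM, lower at both later passages than at P0. None of the 5 passed 1.5-fold in any comparison.

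The eIF3 complex, the largest initiation factor, stayed close to its P0 level as a group. The median over its 14 genes was -0.02 at P1 and -0.02 at P2 against P0, with 5 genes higher and 9 lower at P2. The summed level was 3444, 3493 and 3522 FPKM at P0, P1 and P2. Eif3b, a scaffold subunit, was the most abundant with 644, 606 and 617 FPKM. The members furthest from P0 were Eif3i and Eif3h. Eif3i had 180, 215 and 223 FPKM, and its P2 level was 1.24 times that at P0 (interval 1.19 to 1.29). Eif3h had 286, 325 and 353 FPKM, and its P2 level was 1.23 times that at P0 (1.20 to 1.27). Eif3a, the core scaffold, had 185, 181 and 162 FPKM, with P2 lowest. Eif3k, a peripheral subunit, had 297, 337 and 335 FPKM, with P0 lowest. The loosely bound subunit eIF3j comes from a pair of near-identical genes: Eif3j1 had 51.6 to 55.6 FPKM and Eif3j2 had 8.94 to 9.67 FPKM. Reads of near-identical copies may have been split between them, so the levels of this pair are uncertain. The other 7 genes (Eif3c, Eif3d, Eif3e, Eif3f, Eif3g, Eif3l and Eif3m) stayed within 1.2-fold in all comparisons.

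Both cytoplasmic eIF4A helicase genes gave the largest lower differences at P2 against P0 among the 47 members of at least 50 FPKM. Eif4a1, the main cytoplasmic helicase, had 2437, 1805 and 1790 FPKM at P0, P1 and P2, from 55153, 31781 and 39114 reads. The P1 and P2 libraries lay together and both well under P0. Relative to P0, P1 was lower by 1.35-fold (interval 1.33 to 1.37) and P2 by 1.36-fold (1.34 to 1.38). Quantile normalization reduced the P2 difference of Eif4a1 to -0.30 on the log2 scale, in place of -0.44. Under this scaling it was smaller than those of Eif4e2 (-0.37), Eif1ax (-0.36), Eif4enif1 (-0.32) and Eif4e (-0.32). Median-of-ratios scaling enlarged the P2 difference of Eif4a1 to -0.49. Eif4a2, its paralog, had 262, 211 and 186 FPKM, each passage under the one before. Here P1 was lower than P0 by 1.25-fold (1.20 to 1.30) and P2 by 1.41-fold (1.36 to 1.46). The FPKM ratio of Eif4a1 to Eif4a2 was 9.29, 8.57 and 9.61, with P1 lowest. Eif4a3, the nuclear paralog of the exon junction complex, did not share this and had 486, 485 and 504 FPKM.

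The helpers of eIF4A went apart. Eif4b, which stimulates the helicase, had 284, 246 and 233 FPKM at P0, P1 and P2, with P2 1.22-fold under P0 (interval 1.20 to 1.24). Eif4h, which acts in the same way, had 299, 330 and 317 FPKM, with P0 lowest. Short genes, among them snoRNAs, lie over exons of Eif4a1 and Eif4a2 on the same strand and were listed at 0 to 0.310 FPKM. Rfc4, which overlaps Eif4a2 on the other strand, had 72.7, 68.4 and 87.2 FPKM. Whether counting used the strand is not known here, so reads from overlapping exons cannot be told apart.

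For the cap-binding step, both eIF4E genes with a level above 1 FPKM were lower at P1 and P2. Eif4e had 140, 108 and 114 FPKM at P0, P1 and P2; P1 lay 1.29-fold under P0 (interval 1.24 to 1.36) and P2 lay 1.23-fold under it (1.17 to 1.28). Eif4e2, a homolog linked to repression of bound mRNAs, had 124, 97.5 and 98.4 FPKM, with P2 1.26-fold under P0 (1.21 to 1.31). Neither reached 1.5-fold. The remaining family genes were near the limit of counting: Eif4e1b, an oocyte form, had 2, 9 and 20 reads (0.0885, 0.512 and 0.917 FPKM). Eif4e3 had 3, 13 and 19 reads (0.0514, 0.286 and 0.337 FPKM). Both were lowest at P0, on few reads.

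The eIF4E-binding proteins compete with eIF4G for eIF4E and are released from it by mTORC1. Eif4ebp1 had 296, 266 and 277 FPKM at P0, P1 and P2. Eif4ebp2 had 149, 150 and 150 FPKM and was the steadiest of the family. Both stayed within 1.2-fold while Eif4e was lower, so the FPKM ratio of Eif4ebp1 plus Eif4ebp2 to Eif4e was 3.19 at P0 (interval 3.09 to 3.29), 3.85 at P1 (3.70 to 4.01) and 3.75 at P2 (3.62 to 3.89). Eif4ebp3 had 0, 3 and 1 reads, and a count of 0 at P0 allows up to 0.174 FPKM. Eif4enif1, which carries eIF4E into the nucleus and to P-bodies, had 60.4, 55.3 and 50.3 FPKM, each passage under the one before. The P2 level lay 1.20-fold under that at P0 (1.13 to 1.27).

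Of the eIF4G scaffolds, Eif4g3 was past 1.2-fold higher at P2 than at P0, and the other two were not. Eif4g1, the main scaffold, had 490, 461 and 486 FPKM at P0, P1 and P2. Eif4g2, which lacks the eIF4E-binding region and serves cap-independent initiation and stem cell differentiation, was 2.64, 2.49 and 2.49 times as high, at 1295, 1149 and 1208 FPKM. Eif4g3, a less abundant scaffold with a known role in male germ cells, had 20.8, 28.4 and 30.2 FPKM, with both later passages above P0. The P1 level was 1.36 times that at P0 (interval 1.27 to 1.47) and the P2 level 1.45 times (1.36 to 1.56), under the 1.5-fold limit on the log2 scale (0.52). The ratio of Eif4g1 to Eif4g3 was 23.6, 16.3 and 16.1. Set against its scaffold Eif4g1, the helicase Eif4a1 stood at a ratio of 4.97 at P0 (4.90 to 5.04), 3.91 at P1 (3.85 to 3.98) and 3.68 at P2 (3.63 to 3.74).

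**Figure D3:**
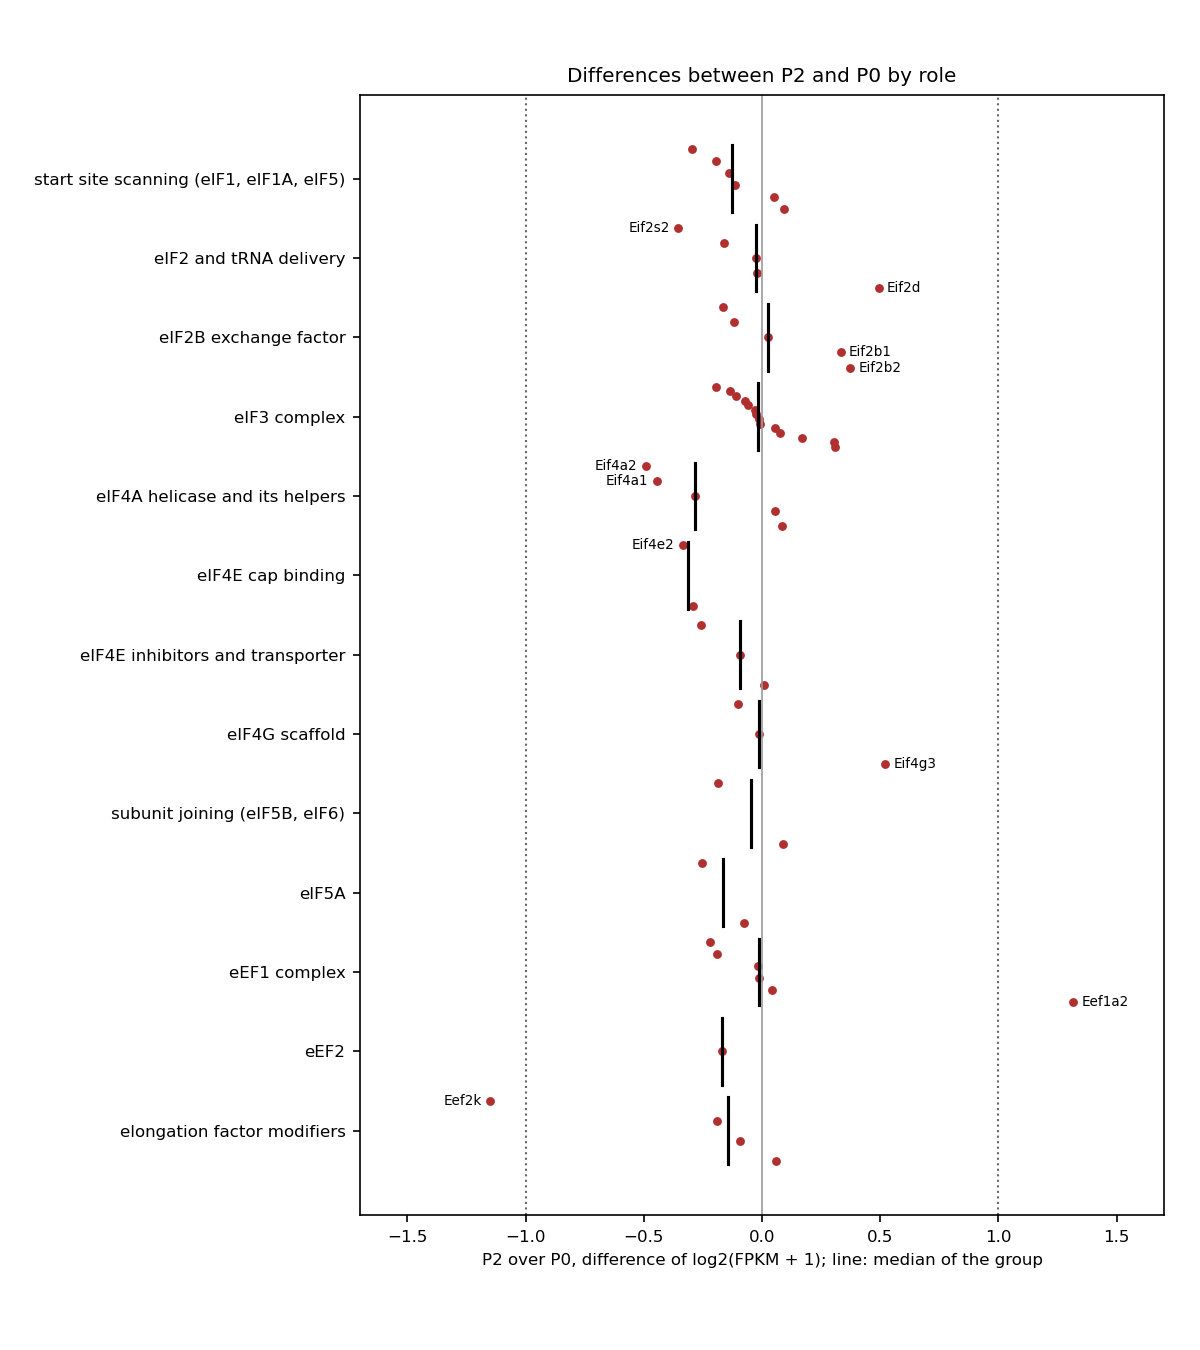
Difference in log2(FPKM + 1) at P2 against P0 for each member with at least 1 FPKM, by role, with the median of the role as a bar and dotted lines at -1 and 1 (2-fold). The eIF4A and eIF4E groups have the lowest medians (-0.28 and -0.31), and Eef1a2 and Eef2k lie far from the others.

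At subunit joining, Eif5b, the GTPase that joins the large subunit, had 99.5, 92.1 and 87.4 FPKM at P0, P1 and P2, with P2 1.14-fold under P0 (interval 1.10 to 1.18). Eif6, which keeps the large subunit from joining too early, had 390, 400 and 416 FPKM, with P2 highest. Both stayed within 1.2-fold. Eif5a, a carrier of the amino acid hypusine, had 1611, 1459 and 1530 FPKM. Its paralog Eif5a2 had 3.27, 2.72 and 2.58 FPKM, with P2 lower by 1.27-fold (1.08 to 1.48). Thus nearly all eIF5A mRNA came from Eif5a, with a ratio of 492 at P0 (445 to 544), 536 at P1 (473 to 608) and 592 at P2 (528 to 664), where neighbouring intervals overlap.

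In elongation, the scarce eEF1A isoform rose, and the abundant one stayed within 1.2-fold of P0. Eef1a1, the isoform of most tissues, had 8821, 7766 and 7731 FPKM at P0, P1 and P2, with P2 1.14-fold under P0 (interval 1.13 to 1.15). This small difference was -0.19 on the log2 scale, -0.24 under median-of-ratios scaling and 0.08 under quantile normalization. The last of these scalings sets values by rank, and Eef1a1 ranked 2 at P0 and 1 at P1 and P2. The 0.08 thus comes from that change of rank and does not measure its level. Eef1a2, the isoform that takes over in adult neurons and muscle, had 2.13, 4.84 and 6.79 FPKM, from 103, 182 and 317 reads, each passage above the one before. Against P0 it was higher by 2.27-fold at P1 (1.77 to 2.92) and rose 3.19-fold at P2 (2.55 to 4.02). The step between P2 and P1 was 1.40-fold (1.17 to 1.69). On the log2(FPKM + 1) scale these differences were 0.90, 1.32 and 0.42. Eef1a2 nevertheless stayed a trace next to Eef1a1, whose FPKM was 4143 times as high at P0 (3415 to 5026), 1606 times at P1 (1389 to 1857) and 1139 times at P2 (1020 to 1271).

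The other genes of the eEF1 group, among them the exchange subunits that recharge eEF1A with GTP, were abundant and close to level. Eef1g, the structural gamma subunit, had 1718, 1528 and 1474 FPKM at P0, P1 and P2. Eef1b2, an exchange subunit, had 1183, 1203 and 1170 FPKM, and Eef1d, the other exchange subunit, had 299 to 304 FPKM. Eef1e1, which belongs to the multi-tRNA synthetase complex, had 89.0, 81.9 and 91.6 FPKM. None of these 4 passed 1.2-fold in any comparison.

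The translocase eEF2 stayed near its P0 level, and the gene of its kinase fell. Eef2 had 1535, 1394 and 1366 FPKM at P0, P1 and P2, with P2 1.12-fold under P0 (interval 1.11 to 1.13). Its P2 difference was -0.17 on the log2 scale, 0.03 under quantile normalization and -0.22 under median-of-ratios scaling. Eef2k, the calcium- and calmodulin-dependent kinase that inactivates eEF2 when energy is short, had 12.9, 9.35 and 5.27 FPKM, from 521, 293 and 205 reads. It was lower at each passage than at the one before. At P1 it was 1.38-fold lower than at P0 (1.20 to 1.60), and at P2 it fell 2.45-fold (2.08 to 2.90), the largest lower difference among the members. Between P2 and P1 it was 1.77-fold lower (1.48 to 2.13). The log2(FPKM + 1) differences were -0.43, -1.15 and -0.72. The FPKM ratio of Eef2 to Eef2k was 119 at P0 (109 to 129), 149 at P1 (133 to 167) and 259 at P2 (226 to 297). An antisense gene that overlaps Eef2k, Gm15774, was listed at 0 at P0 and P1 and at 0.0205 FPKM at P2.

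The methyltransferases that modify elongation factors did not follow Eef2k. Eef1akmt1, which methylates a lysine of eEF1A, had 38.9, 39.9 and 40.5 FPKM at P0, P1 and P2. Eef1akmt2 had 18.2, 17.4 and 15.8 FPKM, with P2 lowest. Eef2kmt, the lysine methyltransferase of eEF2, had 7.16, 5.99 and 6.65 FPKM. Eef1akmt3 was under the floor with 6, 4 and 3 reads.

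**Figure D4:**
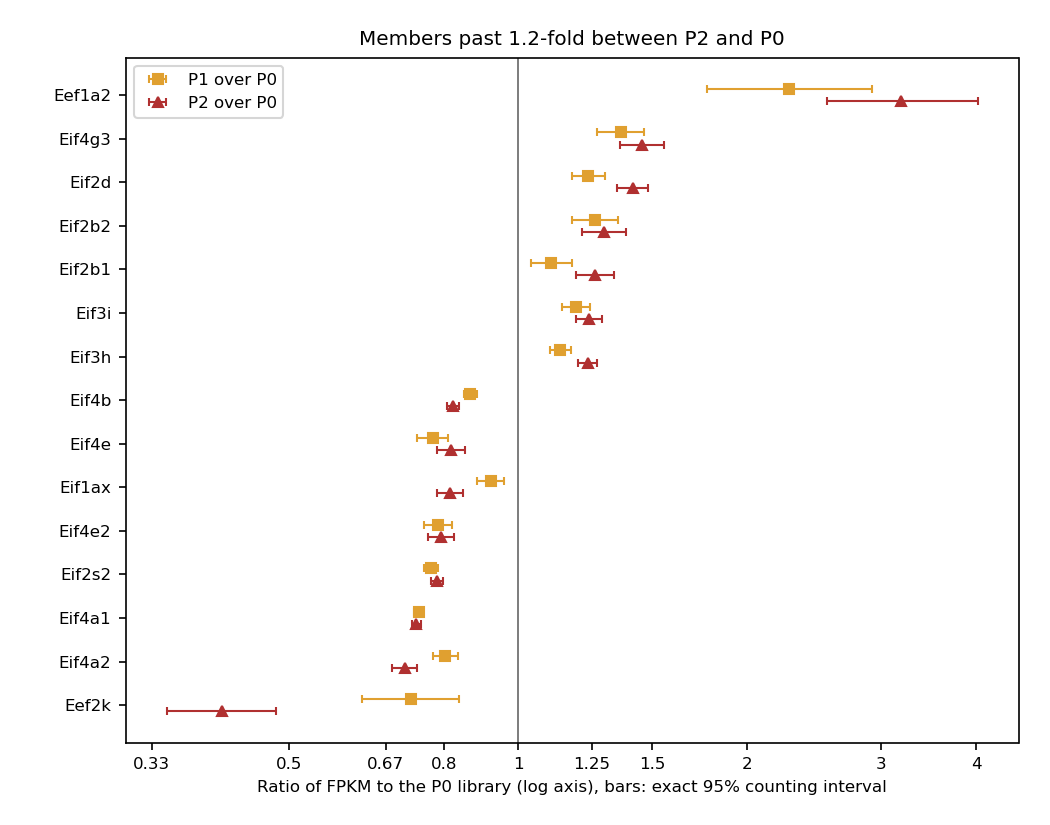
Ratio of FPKM at P1 and at P2 to FPKM at P0 (log axis) for the 15 members past 1.2-fold at P2 against P0, with 95% counting intervals. Eef1a2 (3.19 at P2) and Eef2k (0.408 at P2) stand apart from the other 13, which lie between 0.710 and 1.45 at P2.

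Genes around the factors were followed in 7 lists. In the list of mTORC1 and the kinases of eIF4 factors, 1 of 14 genes rose at P2 against P0 and 1 more passed 1.5-fold, both higher (6.72% and 15.6% of all genes were), with a median of 0.05 beside 0.07 over all genes. Ddit4, a stress-induced inhibitor of mTORC1 signalling, had 37.3, 107.1 and 152 FPKM at P0, P1 and P2, a rise of 4.09-fold at P2 against P0 (interval 3.86 to 4.33). Mknk2, a kinase that phosphorylates eIF4E, had 54.3, 86.1 and 98.7 FPKM, with P2 at 1.82 times the P0 level (1.72 to 1.92). Pdcd4, an inhibitor of the eIF4A helicase, had 11.8, 13.7 and 13.8 FPKM and stayed within 1.2-fold. Of 11 poly(A)-binding proteins and cap partners, 1 passed 1.5-fold at P2, which is below the 15.6% of all genes that were higher by that fold. This was Paip2b, an inhibitor of poly(A)-binding protein, with 36.7, 52.0 and 59.5 FPKM. The median of that list was 0.12.

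Of the eIF2 kinases and the regulatory subunits of its phosphatase, 0 of 6 were past 1.5-fold at P2 against P0, with a median of 0.04. Over all genes 19.9% passed 1.5-fold in that pair. In lists this short a count of 0 does not set them apart from that share. Eif2ak1, the heme-regulated kinase, had 22.1, 24.2 and 25.8 FPKM at P0, P1 and P2, and Eif2ak3, the kinase of the endoplasmic reticulum, had 6.30, 7.63 and 7.11 FPKM. Ppp1r15b, the constitutive phosphatase subunit, had 31.6, 25.7 and 25.7 FPKM, a difference of -0.28 at P2 against P0. Termination and recycling factors numbered 6, with none past 1.5-fold at P2 and a median of -0.13. Among them Etf1, the release factor that reads stop codons, had 333, 264 and 256 FPKM, and Gspt1, its GTPase partner, had 214, 192 and 183 FPKM, each lowest at P2. The 9 enzymes that make hypusine on eIF5A and diphthamide on eEF2 had 0 genes past 1.5-fold and a median of 0.08. Dph2 had the largest P2 difference of this list, higher than P0, with 9.96, 11.6 and 13.7 FPKM. Dhps, which starts hypusine synthesis, was lower, at 76.6, 64.5 and 63.0 FPKM.

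Of 8 genes of reinitiation and non-canonical initiation, 7 could be compared and 0 passed 1.5-fold at P2, with a median of -0.18. Ddx3x, an RNA helicase for structured leaders, had 628, 505 and 478 FPKM at P0, P1 and P2. Mcts1, which acts with Denr in reinitiation, had 34.7, 53.8 and 42.6 FPKM and passed 1.5-fold at P1 alone. The 9 mitochondrial translation factors had 0 genes past 1.5-fold and a median of -0.07. Mtrf1l had the largest P2 difference of this list, lower than P0, with 5.36, 4.57 and 4.11 FPKM. Tufm, the mitochondrial counterpart of eEF1A, was higher, at 259, 288 and 302 FPKM. Over the 7 lists, 3 of 62 genes compared (4.84%) passed 1.5-fold at P2 against P0, beside 19.9% of all genes, and all 3 were higher (Ddit4, Mknk2 and Paip2b).

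Markers of embryonic stem cells were present at every passage, with most of them lower at P2 than at P0, and the summed levels of trophoblast, fibroblast and blood markers were higher at the later passages. All 12 stem cell markers were above 1 FPKM in each library, and their sum was 5079, 4727 and 5033 FPKM at P0, P1 and P2. Of the 12, 8 were lower and 4 higher at P2 than at P0, with a median difference of -0.18. Lower at P2 were 42.3% of all genes and 49.8% of those of at least 50 FPKM. The sum of the stem cell markers was held up by Dppa5a, Tdgf1 and Nanog, which were higher. Within that list Esrrb and Tfcp2l1 were past 1.5-fold lower at P2, as 4.31% of all genes were. Of 9 trophoblast markers, 4, 8 and 8 were above 1 FPKM, and their sum was 67.2, 113 and 149 FPKM. Of the 8 that could be compared, 6 rose at P2 against P0, where 6.72% of all genes did. Elf5, under 1 FPKM in each library and so not compared, was highest at P2, at 0.0274, 0.106 and 0.455 FPKM from 1, 3 and 16 reads. Of 10 fibroblast markers, 3 were above 1 FPKM in each library, with sums of 7.99, 18.3 and 21.2 FPKM. Of these 3, Col1a1 and Thy1 rose at P2. Postn was at 0 in all 3 libraries and Col3a1, Dcn and Lum had between 0.0208 and 0.181 FPKM. Of 6 blood markers, 2, 2 and 3 were above 1 FPKM, with sums of 95.1, 208 and 236 FPKM that came mostly from Laptm5. Of 3 compared, Laptm5 and Cd68 rose at P2, while the defining gene Ptprc had 0.0741, 0.324 and 0.154 FPKM. The trophoblast, fibroblast and blood sums were lowest at P0, as was Eef1a2. Many genes shared this: 31.1% of 13758 genes had P2 above P1 above P0, and 16.8% had P1 above P2 above P0. The part of these markers' cell types in the results for Eef1a2, Eef2k and the eIF4 genes was not tested. In bulk RNA, fewer cells of a type and less RNA per cell cannot be told apart.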

How the data were processed

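RNA-seq of 3 samples, 1 per passage, was analysed. The authors deposited 1 table of FPKM values for all genes; per the submitters' processing notes, the tools Bowtie2 2.0.6 and TopHat2 2.0.9 and the build mm9 were listed. For counting, the program, the annotation and the strand setting were not given in the sources used here. Symbols, gene types and exon overlaps came from GENCODE M21 (GRCm38), with 49412 IDs named. Promoters came from RefSeq (GRCm38.p6), so no deposited coordinates were used.

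FPKM values were turned back into whole reads by searching for totals and gene lengths that make every value whole, and 26291 of 26291 IDs above 0 did so within a relative tolerance of 1e-09. Recovered reads summed to 100.5% of each total, and 43 of 62 members had a length within 1 base of the mean transcript length. The reads gave intervals and were not tested. The 3 passages were compared in pairs with a floor of 1 FPKM, 1 added before taking log2, and a fold of 2 or 1.5. The steps were tested on simulated data.

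The members, role groups, 7 pathway lists and 4 marker lists were chosen with earlier results of these data known. Named in full were members past 1.5-fold with at least 5 FPKM, the 10 highest, the most variable member of each role and the paralogs. Per pathway list, at most 3 genes with the largest P2 difference and at least 5 FPKM were eligible. Members past 1.2-fold were named after their values were seen. In the annotation 25 of 62 members overlap exons of other genes, 15 of them on the opposite strand. The 8 alternatives covered the pseudocount, floors of 5 FPKM or none, 3 scalings, dropping short RNA genes together with models lacking an Ensembl ID, and dropping regulators and modifiers. Software was pandas 2.3.3, scipy 1.17.1, numpy 2.4.6 and matplotlib 3.10.9 under Python 3.11.15.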

Additional observations from a re-analysis of the deposited data

Results flagged for a closer look

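Eif2s3y, the Y-linked copy of the eIF2 gamma gene, was not among the members, but its row held signal: 0.745, 2.44 and 2.98 FPKM at P0, P1 and P2, from 22, 56 and 85 reads. Its X-linked counterpart Eif2s3x had 336, 303 and 301 FPKM in the same libraries. Another Y-linked gene, Ddx3y, had 5, 1 and 3 reads (0.0758, 0.0195 and 0.0471 FPKM) and was not higher at the later passages. Whether reads of Eif2s3x were counted for Eif2s3y was not tested. Eif2s3y was picked out because it is a signal in a row that the comparisons above do not use.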

How the results depend on the processing

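With a pseudocount of 0.1, 1 member passed 2-fold at P1 against P0 in place of 0 (Eef1a2). With a floor of 5 FPKM, 0 members passed 1.5-fold in that pair in place of 1, since Eef1a2 was under the floor in both libraries. Without the regulators and modifiers, Eef2k leaves the set, and 1 member passed 2-fold and 1 passed 1.5-fold at P2 against P0 in place of 2, and 0 passed 1.5-fold between P2 and P1 in place of 1. With rescaling to 1000000 per library 3 members passed 2-fold at P2, because Eif4e1b then cleared the floor. The members' median at P2 against P0 ran between -0.12 and -0.03 over the alternatives. Among 78 pairwise differences of named members, median-of-ratios scaling changed the sign of 4 and quantile normalization of 14, but of none past 1.5-fold. Under quantile normalization Eef1a1, Eef1b2, Eef2, Eif4g2 and Eif5a were higher and not lower at P2 than at P0, Eif4ebp2 was lower and not higher, and Eif4a1 stood at -0.30 in place of -0.44. For Eef1a1 the turn came from its change of rank, from 2 at P0 to 1 at P2. Median-of-ratios scaling made the lower P2 differences of Eif4a1, Eef1a1 and Eef2 larger, at -0.49, -0.24 and -0.22. No paired analysis was possible because each passage has 1 library. The precision of Eif4e1b, Eif4e3, Eif4ebp3 and Eef1akmt3 is limited by their few reads.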

Other observations

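Among rows with a member's name that are not protein-coding, the pseudogene Eif4a-ps4 was listed at 13.0, 9.32 and 11.7 FPKM at P0, P1 and P2. Reads of a pseudogene and of the gene it was copied from are hard to tell apart. Eif3s6-ps2 was listed at 2.56, 0.759 and 0.611 FPKM, from 78, 18 and 18 reads. Among paralogs whose ratio is not given above, Eif1 over Eif1b stood at 23.7, 26.4 and 23.3, and Eif1a over Eif1ax at 1.24, 1.19 and 1.33.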
